A study of Moesziomyces aphidis with 9 samples.

Results

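In Moesziomyces aphidis strain DSM70725, a smut fungus that secretes glycolipid surfactants, 39 of 6952 genes had high levels in both strand-specific RNA libraries and far lower ones in every unstranded 50 bp library. The genes were chosen by their RPKM levels. A gene was a member when its lower stranded value was at least 10 RPKM (reads scaled by gene length and by library size) and at least 16 times its highest value in the 6 unstranded 50 bp libraries. Before this, 1 RPKM was subtracted from each stranded value, since 1 appears to have been added to all of them. The stranded and 50 bp levels that chose the genes are therefore given as a description, with no test. The working name for the set, short genes high in stranded libraries alone, held for length in 37 of the 39, which were at most 600 bp long. It held less well for level, because 8 of the 39 reached at least 100 RPKM in a 50 bp library.

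Cultures with soybean oil grew for 114 h at 30 °C on yeast extract, 40 g/l glucose and 70 g/l oil, and are labelled as soybean oil induced filaments. Cultures without oil had the same yeast extract, glucose, time and temperature, and are labelled as not induced blastospores, so medium and cell form cannot be told apart. Each medium had 3 libraries of 50 bp single reads (TruSeq RNA v2 kit) and 1 library from the TruSeq Stranded kit that carries the number of replicate 1, and soybean oil replicate 2 also had a paired-end library of 95 bp reads. All were made from total RNA of the same strain, and titles number the replicates as br1 to br3. The labels do not spell this out or say whether replicates came from separate cultures, so a p-value here covers sample-to-sample spread, which may be technical.

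A fungal transcriptome holds several kinds of short RNA. Some are messenger RNAs of small proteins, such as those of the ribosome, and others are non-coding RNAs that take part in splicing, RNA modification or protein export, many of which carry no poly(A) tail when mature. The TruSeq RNA v2 kit captures poly(A) tails and does not record the strand of origin, whereas stranded kits mark one cDNA strand and are sold both with poly(A) capture and with removal of ribosomal RNA. The labels do not say which of these was used. The files give identifiers alone, so no role is given to any of the 39 genes, and their sequences and positions were not used here. Without strand, reads of a gene and of a gene overlapping it on the other strand cannot be told apart.

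The 50 bp libraries held 8108888 to 11100455 reads and the paired-end library 31573726. The totals of the stranded libraries were estimated from the steps of 1 read in their low values, at about 11100000 reads with soybean oil and about 23800000 on glucose. Of the reads, 97.1% and 95.4% lay in genes in these stranded libraries, against 97.2% to 98.1% in the 50 bp libraries. Each stranded library came with a pair of splice junction lists, which held 41375 and 40475 junction reads with oil and 98593 and 97781 on glucose. The 50 bp lists held 163851 to 224962 junction reads.

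The 39 genes took a large part of the stranded libraries. They held 14.9% of all reads in the stranded soybean oil library and 19.1% in the stranded glucose library. In the 50 bp libraries they held 0.106%, 0.108% and 0.105% of the reads with soybean oil and 0.111%, 0.0933% and 0.0956% on glucose, so every 50 bp library lay far below both stranded ones. The mean share was 0.106% ± 0.00139 with oil and 0.09995% ± 0.00963 on glucose (SD, n = 3 each). The 2 members longer than 600 bp, PaG_00755 and PaG_10034, held most of these 50 bp reads. Without them the order of the media turned, with 0.0335% ± 0.00361 with oil and 0.0400% ± 0.00732 on glucose. Since the rule used these levels, the shares were not tested. The paired-end library was like the 50 bp ones, with 0.121%. Other genes of at most 400 bp together took 0.326% and 0.321% of the stranded reads with oil and on glucose, and 0.367% to 0.569% of the 50 bp reads.

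**Figure D1:**
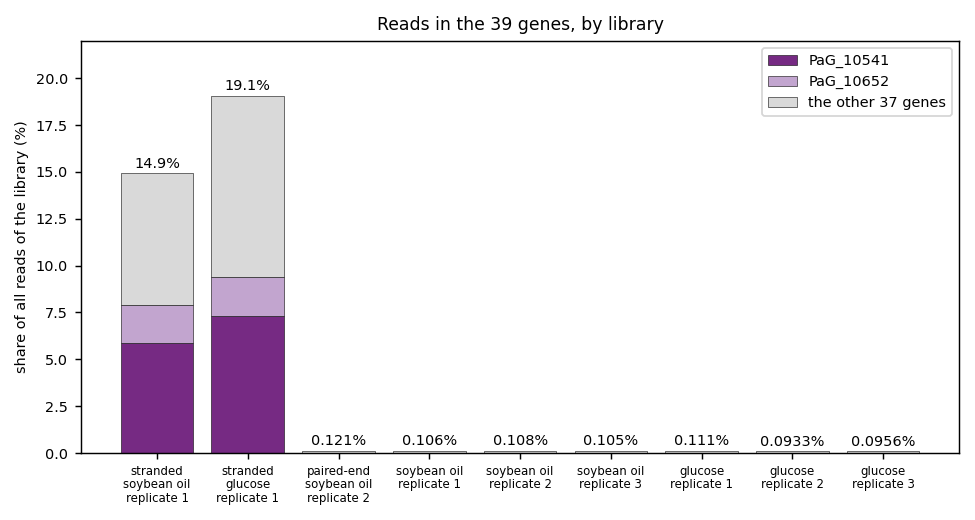
Share of all reads (%, vertical axis from 0) that fell in the 39 genes, for each of the 9 libraries, with the share of PaG_10541, of PaG_10652 and of the remaining genes stacked. The 2 stranded libraries stand at 14.9% and 19.1%, and the other 7 between 0.0933% and 0.121%.

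A single short gene made up 39.4% of that share with oil and 38.4% on glucose. PaG_10541 is 360 bp long and stood at 163242 RPKM in the stranded soybean oil library and 203517 RPKM in the stranded glucose library, or 5.88% and 7.33% of all their reads. Its 50 bp levels were 95.7, 97.3 and 127 RPKM with soybean oil and 122, 95.9 and 88.1 RPKM on glucose, on 351, 389 and 371 reads against 436, 313 and 286. It thus lay below both stranded values in all 6 libraries, and its media overlapped. Its lower stranded value was 1284 times its highest 50 bp value, the largest ratio of the set. The paired-end library gave 204 RPKM, above each 50 bp value and far below both stranded ones.

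PaG_10652, of 297 bp, was next, with 68369 RPKM (2.03% of reads) in stranded soybean oil and 69423 RPKM (2.06%) in stranded glucose. In the 50 bp libraries it had 101, 110 and 115 RPKM with soybean oil and 170, 122 and 151 RPKM on glucose. Here the media did not overlap, with all 3 oil values below the glucose ones, while the stranded pair was nearly equal.

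PaG_10647, of 189 bp, had 34824 RPKM in stranded soybean oil and 23663 RPKM in stranded glucose. Its 50 bp values were 18.2, 18.1 and 20.2 RPKM with soybean oil and 19.7, 10.5 and 13.5 RPKM on glucose. Their ranges overlapped, and this gene was the third of the set by level and by ratio (1170 times). PaG_10011, of 356 bp, had 15181 RPKM in stranded soybean oil and 15768 RPKM in stranded glucose. With oil its 50 bp values were 68.9, 79.5 and 64.1 RPKM, and on glucose 77.9, 55.8 and 53.3 RPKM, again overlapping. PaG_10241, of 379 bp, combined a high stranded level with a very low 50 bp one. It had 12004 RPKM in stranded soybean oil and 14610 RPKM in stranded glucose. The 50 bp libraries gave 6.73, 9.98 and 8.13 RPKM with oil and 7.68, 6.11 and 7.32 RPKM on glucose, on 21 to 42 reads, and its lower stranded value was 1202 times the highest of them.

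The remaining genes filled a wide range. Across the 39, the level ran from 366 to 163242 RPKM with a median of 2892 in stranded soybean oil, and from 216 to 203517 RPKM with a median of 3301 in stranded glucose. The median over all genes was 18.0 RPKM and 24.8 RPKM in these libraries. In the 50 bp libraries the medians of the 39 were 18.2, 20.7 and 22.1 RPKM with soybean oil and 27.5, 20.9 and 20.6 RPKM on glucose, below the medians of all genes (27.6, 30.5 and 29.1 RPKM with oil, 32.2, 32.1 and 28.5 RPKM on glucose). Of the 39, 33 had at least 1000 RPKM in both stranded libraries, among 55 such genes in all, and 7 had at least 10000 RPKM, among 8. The ratio of the lower stranded to the highest 50 bp value had a median of 65.0, was at least 100 in 16 genes and at least 1000 in 4.

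**Figure D2:**
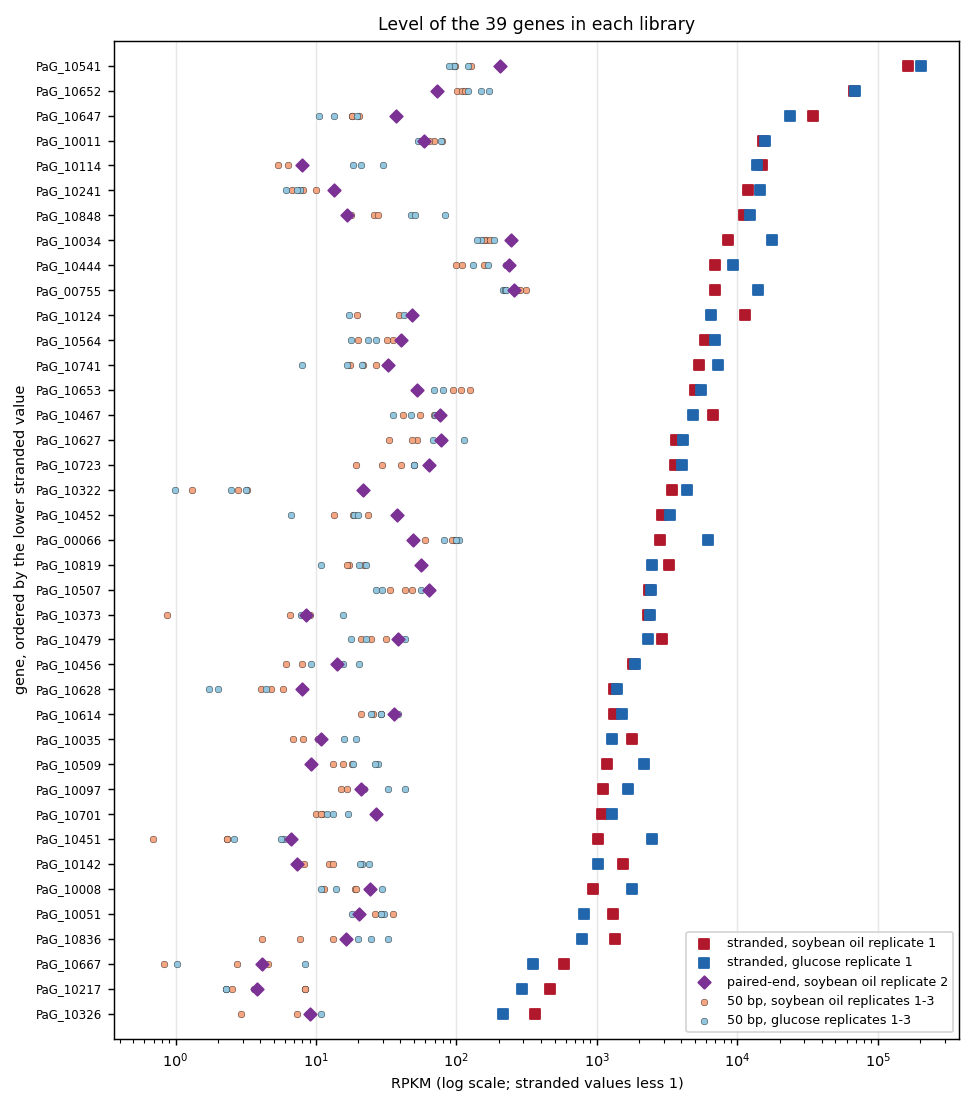
Level of each of the 39 genes in RPKM (horizontal log axis; 1 subtracted from stranded values), ordered by the lower stranded value, with 1 point per library. Squares are the stranded libraries, diamonds the paired-end library and circles the 50 bp libraries; every pair of squares lies to the right of all other points of its gene, by at least 19.8 times the highest circle.

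The rule cut through a thinly filled range. Just inside it were PaG_10326, of 101 bp, with a ratio of 19.8 (366 RPKM in stranded soybean oil and 216 RPKM in stranded glucose, against at most 10.9 RPKM at 50 bp), and PaG_00755 with 22.2. Just outside were PaG_10222 (15.1) and PaG_10207 (11.7). Between 4 and 16 times there were 11 genes with at least 10 RPKM in both stranded libraries, 10 of them with identifiers above 10000, like most members. The minimum of 10 RPKM removed no gene near it, since the lowest member stood at 216 RPKM. No gene with at least 10 RPKM in both stranded libraries was at 0 in all 6 of the 50 bp libraries. For 4 genes the stranded files list no value, so the rule could not be applied to them. The reverse pattern, with every 50 bp value at least 10 RPKM and at least 16 times both stranded ones, was met by 1 gene, PaG_02934, of 308 bp, which was picked out after its values were seen. It had 0 and 0.14 RPKM in stranded soybean oil and glucose and 12.6 to 59.4 RPKM in the 50 bp libraries.

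Length was not part of the rule, and the 39 genes were short. Their median length was 261 bp, against 1655 bp for the 6899 genes whose length could be worked out from the RPKM values. At most 400 bp long were 32 of the 39 (82.1%), against 251 of 6899 genes (3.64%). The shortest was PaG_10836, of 89 bp, which had 1351 RPKM in stranded soybean oil and 780 RPKM in stranded glucose. Its 50 bp values rested on 7, 13 and 3 reads with oil and 22, 16 and 26 reads on glucose. Lengths that were multiples of 3 made up 35.9% of the set and 32.4% of all lengths. Short length did not end at the ratio of 16. The 5 genes outside the set at 8 to 16 times were 120 to 580 bp long. Those at 4 to 8 times ran from 115 to 2470 bp.

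Both genes longer than 600 bp behaved alike in the stranded libraries. PaG_00755, of 1723 bp, had 6952 RPKM in stranded soybean oil and 14022 RPKM in stranded glucose, which was 1.20% and 2.42% of the reads. PaG_10034, of 1379 bp, had 8576 RPKM in stranded soybean oil and 17685 RPKM in stranded glucose, or 1.18% and 2.44% of the reads. The 2 genes thus took nearly equal shares in each stranded library and both stood at 0.496 and 0.485 times their glucose value with oil, but their 50 bp levels differed. PaG_00755 had 314, 274 and 283 RPKM with soybean oil and 216, 221 and 226 RPKM on glucose, the highest 50 bp levels of the set with oil. PaG_10034 had 161, 174 and 158 RPKM with oil and 185, 151 and 139 RPKM on glucose, with overlap. PaG_10034 was singled out after its values were seen, and whether the 2 genes share reads was not tested.

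The identifiers also set the 39 genes apart from most genes, but not from those just below the ratio of 16. Of the 11 genes at 4 to 16 times, 10 had numbers above 10000 too. Of them, 37 (94.9%) carried a number above 10000, a separate series of 941 of the 6952 genes (13.5%). That series was not short as a whole, with a median of 1722 bp against 1649 bp for the main series. Among genes of at most 400 bp, 31 of 80 in the series above 10000 belonged to the set, against 1 of 171 in the main series, PaG_00066 of 326 bp. Genes of at most 200 bp show the same: 14 of 25 in the series above 10000 and 0 of 28 in the main one. What separates the number series was not tested. The 37 had numbers between 10008 and 10848, and 8 of the 39 had a member as direct neighbour, in 4 pairs. The 69 other genes beside a member had a median ratio of 0.492, and 3 of the 69 reached 4 times. All genes outside the set in the series above 10000 had a median ratio of 0.414, and 10 of 900 (1.11%) reached 4 times. Whether these shares differ was not tested.

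The ratio of stranded to unstranded level was also taken over all genes by length class. Among genes of at least 10 RPKM in the unstranded library of replicate 1, those of over 1000 bp had a median log2 ratio of stranded to unstranded level of -0.54 with soybean oil (n = 4125 genes) and -0.31 on glucose (n = 4515). The ratio was lower at 400 to 600 bp, with -1.05 and -0.86 (n = 247 and 261). At up to 200 bp it was 4.61 with oil and 3.99 on glucose (n = 20 and 25), medians that include members, which were chosen for a high ratio. In this class the series above 10000 lay at 5.49 with oil and 4.73 on glucose (n = 17 and 21), and the main series, which holds no member there, at 0.35 and 0.09 (n = 3 and 4). Of these shortest genes, those outside the set had medians of 0.90 with oil and 1.07 on glucose (n = 11 and 13). Those outside the set with identifiers above 10000 lay higher, at 1.18 with oil and 2.79 on glucose (n = 8 and 9). Between 200 and 400 bp, genes outside the set lay at -0.72 and -0.55 (n = 73 and 80). Each kind of library in this comparison had 1 library per medium, and kit, depth and run cannot be told apart.

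**Figure D3:**
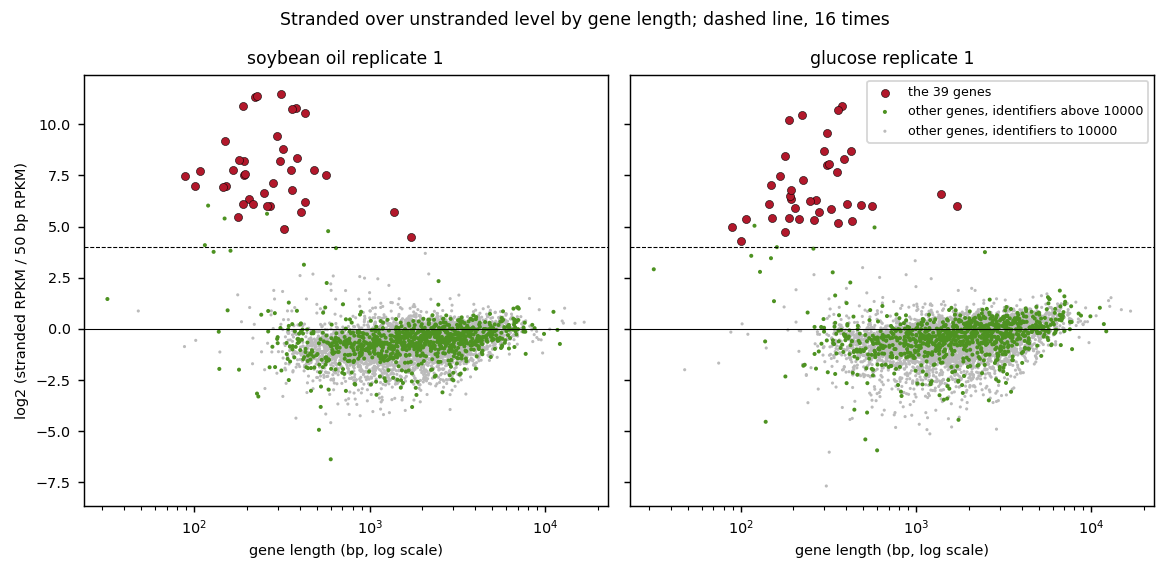
Log2 ratio of stranded to unstranded RPKM in replicate 1 (vertical axis) by gene length (horizontal log axis), with soybean oil on the left (6619 genes above 0 in both libraries) and glucose on the right (6723 genes). The 39 genes lie between 4.47 and 11.47 with oil and between 4.31 and 10.89 on glucose; small points are the other genes, in a different colour for identifiers above 10000, and the dashed line marks 16 times.

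The paired-end library took no part in the rule, but the 50 bp library of the same replicate did. Its levels are therefore not independent of the choice of genes. The set was not high in the paired-end library. Levels of the 39 genes there ran from 3.77 to 259 RPKM with a median of 32.4, against a median of 38.2 RPKM over all genes. At least 10 RPKM was reached by 30 of the 39, against 83.8% of all genes. None reached 16 times its highest 50 bp value (0.0154% of the 6486 genes that average 1 RPKM or more at 50 bp did), and 16 of 39 lay above that value at all, against 43.7%. Relative to the 50 bp library of the same replicate, 9 were at least 2-fold higher in the paired-end library (17.7% of genes) and 2 at least 2-fold lower (5.38%). These shares were read against a 50 bp level that the rule had kept low. The stranded soybean oil value exceeded the paired-end value in all 39 genes, by 26.9 to 1886 times. Because the rule had chosen high stranded values, this count is a description and was not tested.

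PaG_10322, of 223 bp, was the 1 gene of the set with over 4 times its highest 50 bp value in the paired-end library (0.555% of genes reached this) and was picked out for it. The paired-end library gave 21.6 RPKM on 152 reads. Its 50 bp values were 1.32, 3.23 and 2.77 RPKM with soybean oil and 3.15, 0.989 and 2.49 RPKM on glucose, on 2 to 8 reads. In stranded soybean oil it had 3447 RPKM and in stranded glucose 4378 RPKM. The paired-end value was therefore 6.68 times the highest 50 bp one, and remained far below both stranded ones.

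The next question was whether soybean oil changed these genes. The contrast between media was not used by the rule, and in the 50 bp libraries all 39 genes passed the minimum mean of 1 RPKM and none had a count of 0. With soybean oil, 11 of the 39 were lower (28.2%) and 2 higher (5.13%), by limma at an adjusted p under 0.05. Of all 6486 genes tested, 28.0% were lower and 21.5% higher, so the share of lower genes was at the background. The split moved with the scaling, to 10 lower and 4 higher after median-ratio scaling and 9 lower and 6 higher after quantile normalization. Of these 6, 1 was among the 2 called higher without rescaling. The share of all genes called after either scaling is not given, so the shift cannot be read as particular to the set. Over the 39, the log2 change had a median of -0.03, and over all genes tested of -0.06. Unadjusted p-values were under 0.05 in 15 of the 39. The share of all genes with such a p-value is not given, so this count cannot be read as particular to the set. The values of the media did not overlap in 12 genes that were lower with oil (32.6% of all genes) and 2 that were higher (27.3%). The set's standard errors were larger than usual, with a median of 0.24 on the log2 scale against 0.16 for all genes, and its genes had a median of 47 reads per library, with as few as 1.

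PaG_10114, of 312 bp, fell most. It had 5.35, 7.80 and 6.32 RPKM with soybean oil and 18.3, 20.9 and 30.2 RPKM on glucose, without overlap, which is a difference of -1.67 ± 0.21 (SE) in log2(RPKM + 1), with an adjusted p of 0.000419 by limma. PaG_10836 had 7.72, 13.2 and 4.16 RPKM with soybean oil and 24.8, 19.8 and 32.4 RPKM on glucose. All its oil values were below the glucose ones, a difference of -1.61 ± 0.34 (SE) in log2(RPKM + 1) with an adjusted p of 0.00564 by limma. The call was not made with the paired-end library in place of soybean oil replicate 2 (adjusted p 0.0770 by limma). The log2 differences of the 11 lower genes ran from -1.67 to -0.43, and 4 of them were at least 2-fold lower (12.2% of all genes). None was at least 2-fold higher (6.63% of all genes), and the highest log2 difference among the 39, not called, was 0.87.

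Both genes that rose changed by less than 2-fold. PaG_10653, of 404 bp, had 95.0, 124 and 108 RPKM with soybean oil and 80.3, 54.3 and 69.5 RPKM on glucose. All oil values lay above the glucose ones, by 0.68 ± 0.17 (SE) in log2(RPKM + 1) with an adjusted p of 0.0112 by limma (0.587 with the paired-end library in place of soybean oil replicate 2). PaG_10653 and PaG_10114 were named after their values were seen. PaG_00755, whose values are given above, was higher by 0.39 ± 0.11 (SE), with an adjusted p of 0.0229 by limma. It was not called without soybean oil replicate 1 or 3 or glucose replicate 1 or 2 (adjusted p 0.0601 to 0.0860 by limma), after quantile normalization (0.116) or with the paired-end library in place of soybean oil replicate 2 (0.157). In every alternative tried its log2 difference stayed between 0.27 and 0.46. The 2 counts also changed with the library left out. The 11 lower genes became 7 without soybean oil replicate 1, 6 without soybean oil replicate 3 and 6 without glucose replicate 1. Without glucose replicate 1, 4 genes were called higher, and 1 of these was among the 2. Without soybean oil replicate 3 or glucose replicate 2, 1 gene was called higher. When the paired-end library stood in for soybean oil replicate 2, 3 genes were lower and 0 higher. On reads recovered from the RPKM values, edgeR called 9 lower and 2 higher of the 35 that passed its filter, and DESeq2 9 lower and 2 higher of all 39. The share of all genes called under these alternatives is not given, so the changes cannot be read as particular to the set.

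Most of the 39 genes shared their highest replicate on glucose. Glucose replicate 1 was the highest of the 3 glucose libraries in 34 of the 39, against 36.6% of all genes, and its median ratio to the mean of the other glucose libraries was 1.43 over the 39 and 1.06 over all genes tested. Soybean oil replicate 1 was the lowest of the oil libraries in 24 of the 39, not far from the 53.2% of all genes. Its median ratio to the mean of the other oil libraries was 0.768 over the 39 and 0.918 over all genes tested. Within the unstranded pair of replicate 1, 37 of the 39 were lower with oil (60.9% of all genes), with a median log2(RPKM + 1) difference of -0.74 over the 39 and -0.19 over all genes. The pattern was noticed in these libraries and was not tested.

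The stranded pair of replicate 1 gave the same contrast without replicates. No gene of the 39 was at least 2-fold higher with soybean oil (4.28% of 4488 genes with at least 10 RPKM in both libraries), and 4 were at least 2-fold lower (12.5%). The log2 ratio of oil to glucose ran from -1.27 to 0.81 with a median of -0.14, where the median of all these genes was -0.23. In 13 of the 39 the oil value was the higher one, against 35.0% of genes. After shifting the median of all genes to 0, 26 of the 39 were higher with oil, against 50.0% of genes, a share fixed by the shift itself. Of the 39, 2 were then at least 2-fold higher (6.75% of genes) and 1 at least 2-fold lower (8.04%). There was 1 stranded library per medium, so no test was possible. The RPKM scale of the oil library also carries PaG_10876, a gene of 643 bp outside the set, picked out after its values were seen, which took 11.1% of all reads in stranded soybean oil and 0.929% in stranded glucose.

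PaG_10451, of 427 bp, showed the largest drop of the stranded pair, with 1021 RPKM in soybean oil and 2457 RPKM on glucose. Its 50 bp values were 0.689, 2.32 and 2.31 RPKM with oil and 5.88, 5.68 and 2.60 RPKM on glucose, also without overlap, on 3 to 25 reads. It was called lower there (adjusted p 0.0370 by limma), but was not called in 8 of 14 alternatives. PaG_00066 was next, with 2814 RPKM in stranded soybean oil and 6157 RPKM in stranded glucose. In the 50 bp libraries its media overlapped, at 95.4, 93.1 and 59.4 RPKM with oil and 105, 81.6 and 98.7 RPKM on glucose. At the other end was PaG_10124, of 149 bp, with 11418 RPKM in stranded soybean oil and 6493 RPKM in stranded glucose. It had 19.8, 47.2 and 38.9 RPKM with oil and 49.2, 42.2 and 17.1 RPKM on glucose in the 50 bp libraries, with overlap. PaG_10836 was the second highest by this ratio, 1.73 times higher with oil in the stranded pair, although it was among the genes that fell in the 50 bp libraries.

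Set side by side, the 2 kinds of library gave the same direction in 7 of the 13 genes called in the 50 bp libraries, and in 4 of 13 after shifting the stranded median to 0. Of all 3193 called genes with a value above 0 in both stranded libraries, 91.9% had the same direction, and 95.2% after the shift. The stranded libraries carry the number of replicate 1, whose unstranded libraries were among those tested, so the comparison is not independent of the test.

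**Figure D4:**
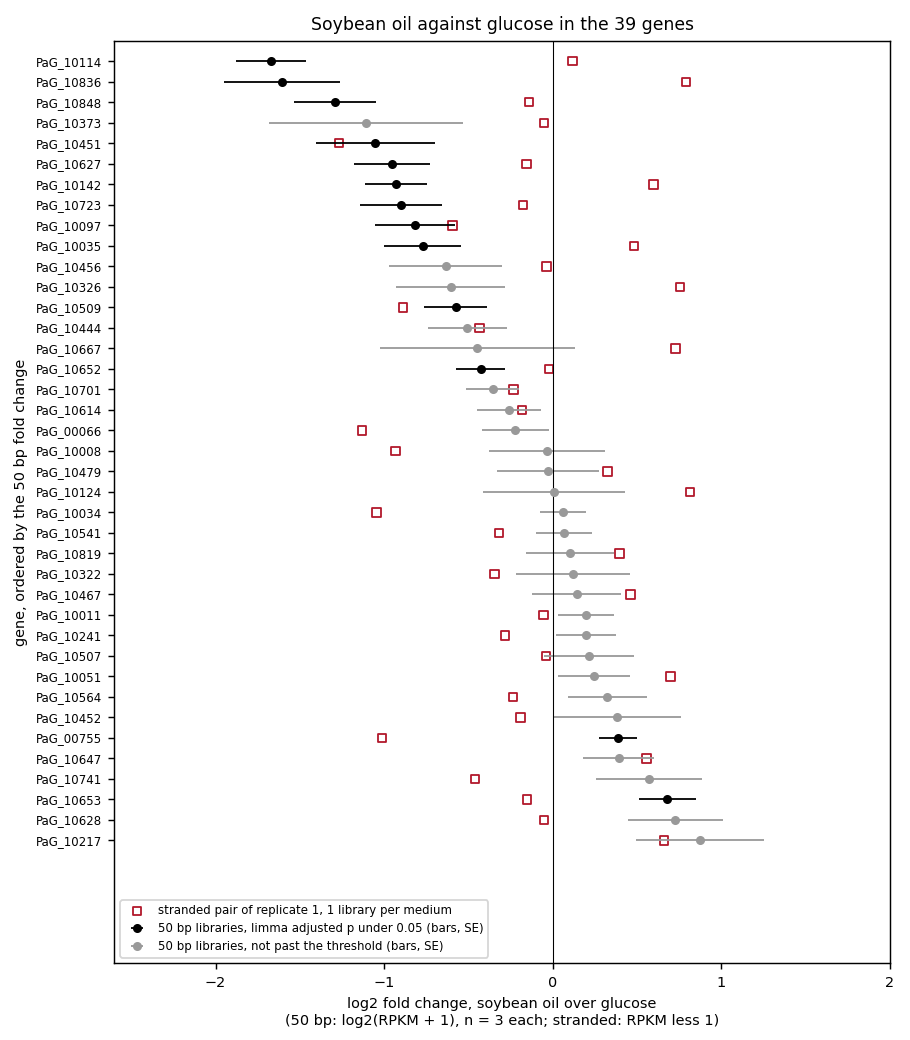
Log2 fold change of soybean oil over glucose (horizontal axis) for the 39 genes, ordered by the 50 bp value. Circles are the 50 bp libraries (n = 3 each, bars show the SE, black for limma adjusted p under 0.05) and squares the stranded pair with 1 library per medium; the circles run from -1.67 to 0.87 and the squares from -1.27 to 0.81, with several pairs on opposite sides of 0.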

How the data were processed

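Gene-level RPKM values were deposited by the authors, with alignment by TopHat 1.4.1 per the submitters' processing notes; the sources used here give neither the counting tool nor the annotation, strand setting and genome build. Counts of junction reads in the deposited lists were used for totals alone. In the 50 bp and paired-end libraries, lengths, library totals and reads were worked out from the RPKM values (whole within 0.01 read for 6899 genes; the remaining 53 were at 0). Lengths are the smallest that give whole reads. After subtracting 1, 97.9% of 190 low stranded values with oil and 98.4% of 64 on glucose lay within 0.02 read plus rounding of whole reads (10.1% and 10.9% by chance at a given total). The stranded totals were chosen to make these shares exceed chance the most, so the shares do not test the totals. Shares of reads are RPKM times length, for which stranded lengths were taken to be the same. The media contrast used log2(RPKM + 1) and limma 3.58.1 (R 4.3.3), with a trend in the prior variance and Benjamini-Hochberg adjustment over all genes that averaged 1 RPKM or more. The procedures were tested on simulated data. edgeR 4.0.16 and DESeq2 1.42.0 on the recovered reads were alternatives. Named genes were those of extreme level, ratio, length, reads, paired-end value or stranded response. The members and lists were chosen with earlier results of these data known.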

Additional observations from a re-analysis of the deposited data

Results flagged for a closer look

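In 5 of the 13 genes called in the 50 bp libraries, the stranded pair of replicate 1 went the other way both before and after shifting the stranded median to 0. PaG_10653 went the other way before the shift alone, and some other called genes after it alone. In the stranded pair the log2 ratio of soybean oil to glucose was 0.79 for PaG_10836 and 0.12 for PaG_10114, and 0.60 and 0.48 for 2 further genes, of 151 and 483 bp, all of which were lower with oil in the 50 bp libraries. For PaG_00755 it was -1.01, while the gene was higher with oil in the 50 bp libraries. In the 50 bp libraries those 2 further genes had 12.3, 13.1 and 8.17 RPKM with oil against 23.9, 21.2 and 20.6 RPKM on glucose (151 bp), and 8.13, 10.3 and 6.89 RPKM against 19.3, 10.7 and 15.8 RPKM (483 bp). The difference between the kinds of library was not tested, with 1 stranded library per medium.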

How the results depend on the processing

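The set held 31 to 44 genes under every other threshold, scaling and left-out library tried. All 39 stayed in each of these but the ratio of 32, which left 31. Most of these settings could only add genes, such as a lower threshold, a left-out 50 bp library or 1 stranded library alone. The minimum of 20 RPKM lay below the lowest member, at 216 RPKM. That the 39 stayed in such settings was therefore fixed in advance. The reverse rule, added after the data were seen, gave 1. In the 50 bp contrast, the genes called lower numbered 6 to 10 and those called higher 1 to 4 with 1 library left out. Not all of them were among the 11 and 2 genes called with all 6 libraries. With the paired-end library in place of soybean oil replicate 2, the counts were 3 and 0. Shares over all genes are not given for these settings, nor for the scalings and the replicate block that follow. The higher ones numbered 4 after median-ratio scaling, 6 after quantile normalization and 1 with the replicate block, which left out PaG_00755 (limma adjusted p 0.0584); the cause was not tested. Same-numbered libraries did not consistently deviate together (r of -0.19, 0.23 and 0.05 over genes). Not every library correlated best with its own number, so the block pairs by number alone. In the stranded pair, 7 genes were higher and 7 lower at 1.5-fold, 0 and 0 at 4-fold, and 2 and 1 after median-ratio scaling. Shares over all genes are not given at 1.5-fold and 4-fold, so those counts cannot be read as particular to the set. At 4 times, 1 gene passed in the paired-end library. With all genes of at least 1 read, the median log2 stranded ratio at up to 200 bp was 5.44 with oil and 3.78 on glucose. Within 5 identifiers, 16 genes had a member. No direction of a called gene was reversed, in 15 alternatives (14 for the gene under a mean of 5 RPKM), and 3 of the 13 were called in all of them.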
